A study of Mus musculus with 12 samples.

Results

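The genes described here are 41 genes of DNA replication and mitosis, measured in whole hearts of newborn and adult mice. A gene was a member if its symbol was on a list of replication, checkpoint, spindle and division genes, and it was read by 1 probe set, the one with the highest mean over the 12 arrays among those annotated with that gene alone. Of the 41 listed genes, 40 had such a probe set, out of 18193 genes in all, and 39 passed the filter on low signals, out of 11804 genes. Ccnb1 was not analysed here, and Tyms, the thymidylate synthase gene, lay between 2.89 and 3.45 on the log2 scale in all 12 arrays and did not pass. The 39 tested genes were therefore not every member of the list.

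The study measured messenger RNA on Affymetrix expression arrays in whole excised hearts of CD1 mice, an outbred stock. The mice carried a dominant-negative form of MCU (DN-MCU) or were wild-type (WT) littermates. MCU is the pore of the channel through which calcium enters mitochondria. Adult hearts came from mice of 42 days, all labelled male, and neonatal hearts from mice of 1 day whose sex is given as unknown.

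Each of the 4 groups (WT neonate, DN-MCU neonate, WT adult and DN-MCU adult) held 3 arrays, labelled as biological replicates. The series title places the inhibition of MCU in the myocardium, and the labels do not name the promoter that drives the construct. The comparisons ask how these genes differ between birth and adulthood in each genotype, and between genotypes at each age.

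Cells that divide copy their DNA in S phase and separate the copies in mitosis. The MCM helicase opens the DNA, PCNA holds the polymerases on it, and ribonucleotide reductase and thymidine kinase supply nucleotides. Cyclins with CDK1 then drive entry into mitosis, the spindle checkpoint holds chromosome separation until every kinetochore is attached, and the anaphase-promoting complex ends the hold by marking cyclins and securin for destruction. In the mouse heart, cardiomyocytes still divide around birth and leave the cell cycle within days, while other heart cells can divide later.

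Promoter sequences of 4 members are shown, chosen because they hold the short elements marked here. They are RefSeq windows of build GRCm38.p6, printed 5′ to 3′ along each gene from 180 bases before the start to 25 after it. Capitals mark 3 kinds of element on either strand: CCAAT, which reads as ATTGG from the other strand; TTTGAA, which reads as TTCAAA; and the E2F-type letters TTTGGCGC and TTTCGCGC, which read as GCGCCAAA and as GCGCGAAA. CCAAT is the box bound by NF-Y. TTTGAA is the letter string of the cell cycle homology region found in mitotic genes, and E2F sites are known from S phase genes. Cdca8 and Ccnb2 had the largest falls with age in WT among members whose window held both CCAAT and TTTGAA. Cdk1 and Mcm5 had the largest among members whose window held an E2F-type match. The windows are those of Cdca8 at chr4:124936893-124937097 on the minus strand, Ccnb2 at chr9:70421530-70421734 on the minus strand, Cdk1 at chr10:69352888-69353092 on the minus strand and Mcm5 at chr8:75109329-75109533 on the plus strand.
Cdca8: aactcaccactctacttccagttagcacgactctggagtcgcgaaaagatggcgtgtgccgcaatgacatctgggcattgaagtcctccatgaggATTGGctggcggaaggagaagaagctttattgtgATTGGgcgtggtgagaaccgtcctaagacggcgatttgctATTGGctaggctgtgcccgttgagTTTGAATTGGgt
Ccnb2: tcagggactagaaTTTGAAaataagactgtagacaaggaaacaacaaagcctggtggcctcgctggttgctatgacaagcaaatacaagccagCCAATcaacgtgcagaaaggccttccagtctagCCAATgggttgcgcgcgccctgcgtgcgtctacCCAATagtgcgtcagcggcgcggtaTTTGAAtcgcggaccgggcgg
Cdk1: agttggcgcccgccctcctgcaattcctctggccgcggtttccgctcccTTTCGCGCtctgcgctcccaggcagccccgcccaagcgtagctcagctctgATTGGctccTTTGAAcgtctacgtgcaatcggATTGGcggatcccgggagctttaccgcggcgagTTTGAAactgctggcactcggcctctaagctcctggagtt
Mcm5: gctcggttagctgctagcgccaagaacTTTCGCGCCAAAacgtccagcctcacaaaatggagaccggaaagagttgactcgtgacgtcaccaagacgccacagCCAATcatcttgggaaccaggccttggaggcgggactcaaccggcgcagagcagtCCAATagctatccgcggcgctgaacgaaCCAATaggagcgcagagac

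The Cdca8 window held 4 CCAAT matches and 1 TTTGAA, and the last of the CCAAT matches shares 1 base with the TTTGAA. In Ccnb2 there were 3 CCAAT and 2 TTTGAA. Cdk1 had 2 of each and 1 E2F-type match. Mcm5 had 3 CCAAT, no TTTGAA, and 2 E2F-type matches that overlap, since TTTCGCGCCAAA reads as a match on both strands.

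These elements were counted in the full windows of 300 bases (250 before the start and 50 after it), which the table held for 36 of the 41 members. CCAAT occurred in 28 of 36 (77.8%), against 39% of 17492 protein-coding genes. It was as common in the replication members (7 of 9, 77.8%) as in the other members (21 of 27, 77.8%). TTTGAA occurred in 21 of 36 (58.3%), against 16.5% of the protein-coding genes. It was present in 20 of the 27 members outside the replication group (74.1%) and in 1 of the 9 replication members (11.1%), Mcm2. The E2F-type letters occurred in 5 of 36 (13.9%), against 1.07%. Those were Mcm3, Mcm5, Mcm6 and Mcm7, 4 of the 9 replication members (44.4%), and Cdk1, 1 of the other 27 (3.7%). CCAAT and TTTGAA stood together in 19 of 36 windows (52.8%), against 6.68% of protein-coding genes. A match describes the letters in this window and was not tested as a binding site.

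Some facts of the whole data set touch these results. On 1 Mcu probe set the WT arrays lay between 2.45 and 4.55 and the DN-MCU arrays between 8.44 and 10.41, and on the other the ranges overlapped (7.41 to 8.18 and 7.39 to 8.14). The mean log2 signal of 10 cardiomyocyte markers was between 14.73 and 15.3 on all 12 arrays. DN-MCU adult 3 and WT adult 1 stood apart from the other adults, with array weights of 0.073 and 0.251. DN-MCU adult 1 held signals of T cell genes, described beside the adult comparison. All levels are log2 signals, so a difference of 1 is a doubling, and levels were not compared between genes.

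Between birth and adulthood the division genes fell in the WT heart. All 39 tested members fell in WT adults against WT neonates with a limma adjusted p under 0.05, where 27.8% of all genes tested passed in that direction. Their median difference was -5.27, against -0.16 over all genes tested. No member's adult and neonatal arrays overlapped, and 41.5% of genes tested were lower with no overlap. Falls of more than 4 log2 units were seen in 29 of 39 members and in 1.33% of genes tested. The filter bears on the count of falls in both genotypes. Aurka and Plk1, for example, lay below the filter level on every adult array and passed through their neonatal arrays alone. For members like these a rise with age could not have been called. Members above the filter level at both ages, such as Pcna and Mcm5, could have gone either way. Tyms was the only member with a probe set that the filter dropped. In bulk hearts, fewer dividing cells and less RNA per cell cannot be told apart.

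**Figure D1:**
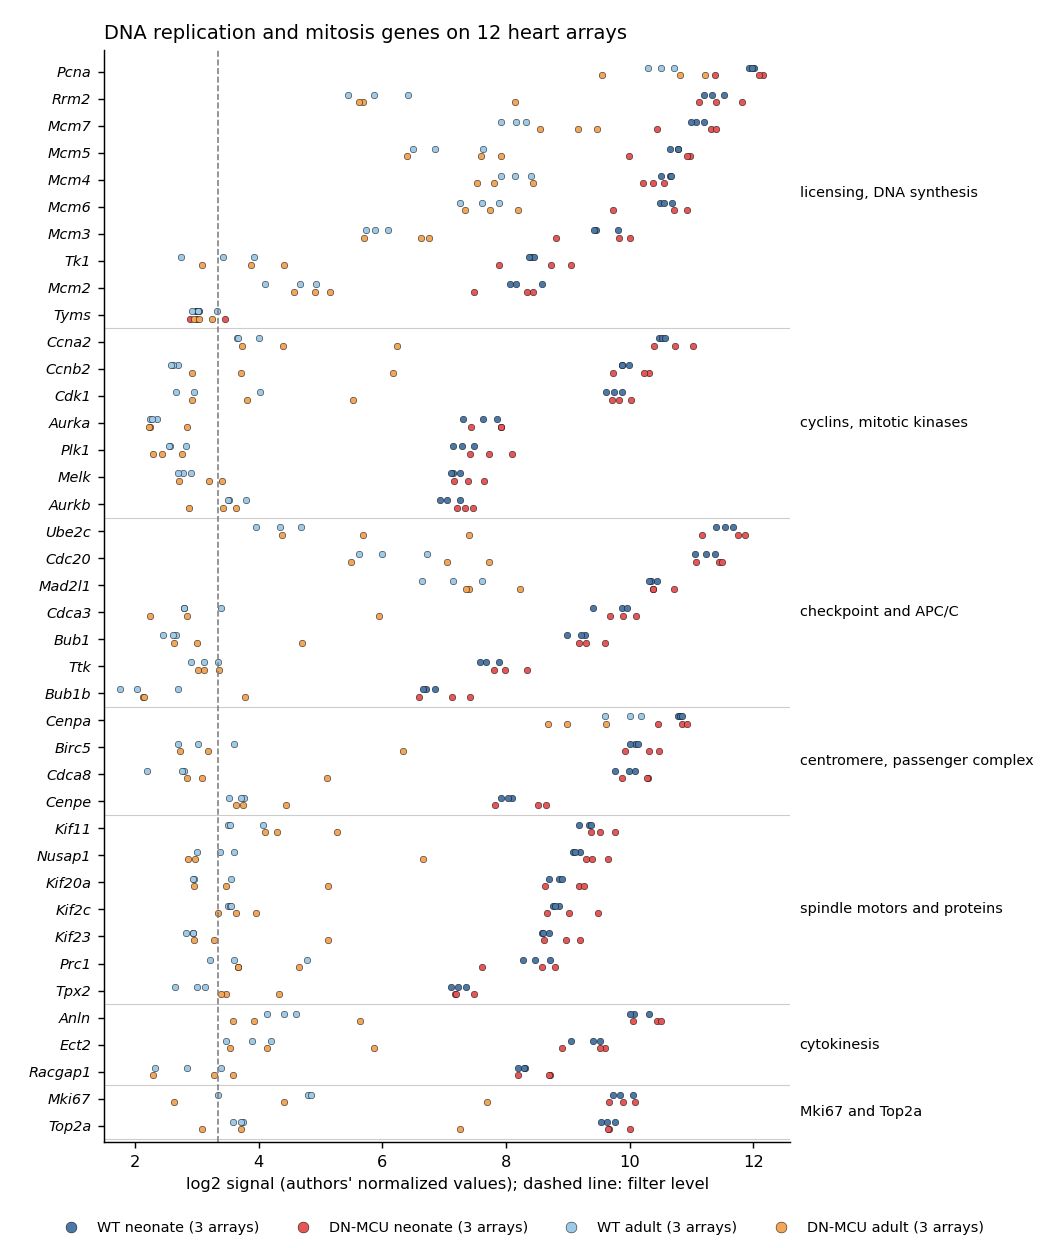
Log2 signal (horizontal axis) of the 40 members with a probe set, grouped by role; each point is 1 array, coloured by group, and the dashed line is the filter level of 3.35. Neonatal points lie to the right of adult points for the 39 tested members, Tyms lies near the line on all arrays, and 1 DN-MCU adult point often lies apart from the other adults.

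On the probe sets used, the 9 replication members fell less than the others. Their median was -3.66 against -5.51 for the remaining 30, a description with no test. Mcm5, a subunit of the helicase, read 10.79, 10.79 and 10.65 in WT neonates and 7.63, 6.85 and 6.5 in WT adults. On this probe set the WT adult signals were all below the neonatal ones and well above the filter level of 3.35. The difference was -3.75 ± 0.42 (SE from the fit, limma adjusted p = 4.38e-05), a 13.5-fold fall. A dimmer Mcm5 probe set had a WT adult mean of 2.22, below the filter level, and a larger fall (-4.76, limma adjusted p = 4.59e-06). The 6 MCM genes fell by a median of 3.33 on the log2 scale. The size of these falls depended on the probe set taken. A dimmer Mcm2 probe set gave -5.19, against -3.71 for the one used. The other Mcm3 probe sets that passed the filter gave -1.62 to -4.54, against -3.66. Pcna, the sliding clamp, read 12.01, 11.93 and 11.98 in WT neonates and 10.3, 10.71 and 10.51 in WT adults. It was the replication member that fell least (-1.46 ± 0.37, limma adjusted p = 0.00794) and it stayed bright in adults. Rrm2, the small subunit of ribonucleotide reductase, went from 11.2, 11.52 and 11.34 to 6.41, 5.86 and 5.44. This was the largest fall of the replication group, at -5.45 ± 0.57 (limma adjusted p = 2.76e-05), or 43.9-fold.

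Cyclins and mitotic kinases fell by a median of 5.31 on the log2 scale. Ccna2, the cyclin of S phase and G2, read 10.47, 10.53 and 10.58 in WT neonates and 3.65, 4.01 and 3.66 in WT adults. Its groups were far apart, with a difference of -6.76 ± 0.49 (limma adjusted p = 2.23e-06) or 108-fold. Ccnb2, a mitotic cyclin, was at 9.88, 9.99 and 9.88 in WT neonates. In WT adults it was at 2.7, 2.62 and 2.59, below the filter level on every array, so its difference of -7.28 ± 0.62 (limma adjusted p = 6.95e-06) was measured against near-background signal. Cdk1, the kinase that starts mitosis, went from 9.88, 9.61 and 9.75 to 2.66, 4.03 and 2.95. One WT adult array of Cdk1, WT adult 2, lay above the filter level, and the difference was -6.53 ± 0.55 (limma adjusted p = 6.31e-06). Aurkb, the kinase of the chromosomal passenger complex, fell least in this group (-3.47 ± 0.2, limma adjusted p = 3.94e-07), from 6.93, 7.04 and 7.25 to 3.8, 3.52 and 3.5.

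Checkpoint and anaphase-promoting complex members fell by a median of 5.1 on the log2 scale. Ube2c, the ubiquitin-conjugating enzyme of that complex, read 11.54, 11.4 and 11.67 in WT neonates and 4.69, 3.95 and 4.35 in WT adults. Its adult signals stayed above the filter level, and the difference of -7.21 ± 0.58 (limma adjusted p = 4.6e-06) corresponds to 148-fold. The 7 spindle motors and microtubule proteins fell by a median of 5.6 and the 3 cytokinesis genes by a median of 5.48 on the log2 scale.

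Centromere and passenger complex genes held the ends of the range. Cdca8, which encodes borealin of the passenger complex, read 9.76, 10.09 and 9.99 in WT neonates and 2.79, 2.76 and 2.2 in WT adults. That was the largest difference of the 39 (-7.37 ± 0.48, limma adjusted p = 9.8e-07), again against signal below the filter level. Birc5, survivin, went from 10.08, 10 and 10.14 to 3.6, 3.02 and 2.69 (-6.97 ± 0.73, limma adjusted p = 2.92e-05). Cenpa, the centromeric histone H3 variant, was the member that fell least. It read 10.78, 10.82 and 10.84 in WT neonates and 9.6, 10 and 10.18 in WT adults, a difference of -0.89 (limma adjusted p = 0.0123) that left a bright adult signal. A dimmer Cenpa probe set gave 0.48 (limma adjusted p = 0.4), the opposite sign.

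Mki67, the proliferation marker on mitotic chromosomes, read 9.73, 9.84 and 10.05 in WT neonates and 3.35, 4.8 and 4.85 in WT adults. The adult arrays spread over more than 1 log2 unit and lay far below the neonatal ones (-5.54 ± 0.97, limma adjusted p = 0.000958). Top2a, the topoisomerase that untangles chromosomes, went from 9.54, 9.76 and 9.64 to 3.74, 3.59 and 3.71, a difference of -5.97 ± 0.81 (limma adjusted p = 0.00017).

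Of the 39 members, 16 had a WT adult mean below the filter level: Aurka, Birc5, Bub1, Bub1b, Ccnb2, Cdca3, Cdca8, Cdk1, Kif20a, Kif23, Melk, Nusap1, Plk1, Racgap1, Tpx2 and Ttk. The size of their fall depends on the background of the array. Some members (Mcm4, Mcm5, Rrm2, Cdc20 and Kif2c) were read by probe sets with the suffix _x_at, whose probes can also match other transcripts. The members had 51 further probe sets, of which 32 passed the filter, and 27 of these fell in WT.

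The members fell with age under DN-MCU too. All 39 tested members fell between DN-MCU neonates and DN-MCU adults (background 29.1% of genes tested), each with no overlap between the groups (background 35.2%). The median was -4.96, against -0.17 over all genes tested, and 29 of 39 fell by more than 4 log2 units (background 1.22%). Cdca8 again had the largest difference (-6.47 ± 0.48, limma adjusted p = 2.62e-06), from 10.29, 9.87 and 10.28 to 5.1, 3.09 and 2.85. Cdca3, which promotes entry into mitosis, followed with -6.22 ± 0.73 and Birc5 with -6.16 ± 0.73 (limma adjusted p = 6.86e-05 and 7.15e-05). Anln, the contractile ring protein anillin, fell from 10.44, 10.06 and 10.51 to 5.64, 3.92 and 3.59 (-5.95 ± 0.43, limma adjusted p = 2.12e-06). In Cdca8 and in Anln the highest DN-MCU adult array was DN-MCU adult 1.

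Ccna2 fell with DN-MCU from 11.02, 10.39 and 10.74 to 6.24, 4.4 and 3.73 (-5.92 ± 0.49, limma adjusted p = 5.99e-06). Cdk1 fell from 10.03, 9.72 and 9.83 to 5.53, 3.82 and 2.92 (-5.77 ± 0.55, limma adjusted p = 1.61e-05). Aurkb fell from 7.46, 7.33 and 7.21 to 3.42, 3.63 and 2.88 (-4.03 ± 0.2, limma adjusted p = 1.5e-07). Of the DN-MCU adult arrays, DN-MCU adult 1 was again the highest for Ccna2 and Cdk1, and DN-MCU adult 2 for Aurkb. Mki67 fell from 10.08, 9.66 and 9.9 to 7.7, 4.41 and 2.64 (-4.97 ± 0.97, limma adjusted p = 0.00196). Top2a fell from 10, 9.66 and 9.65 to 7.25, 3.72 and 3.09 (-5.08 ± 0.81, limma adjusted p = 0.000528). Their DN-MCU adult arrays spread over more than 4 log2 units and still lay below every neonatal array. Among the replication members, Rrm2 fell from 11.82, 11.39 and 11.12 to 8.15, 5.69 and 5.62 (-4.96 ± 0.57, limma adjusted p = 5.53e-05). Mcm5 fell from 10.98, 10.93 and 9.99 to 7.92, 6.4 and 7.59 (-3.33 ± 0.42, limma adjusted p = 0.000103), and here DN-MCU neonate 3 was the low one of its group.

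Pcna fell least in DN-MCU, from 12.15, 12.1 and 11.38 to 11.22, 10.82 and 9.55 (-1.34 ± 0.37, limma adjusted p = 0.0125). That call was lost when the fit held the DN-MCU arrays alone (limma adjusted p = 0.07). The means of 7 members lay below the filter level in DN-MCU adults (Aurka, Aurkb, Bub1b, Melk, Plk1, Racgap1 and Ttk). Cell type markers also differed with age in these arrays. Over all genes tested, 2026 of 11804 rose in WT and 3284 fell. Of 10 macrophage markers, 7 rose in WT, 5 of 7 epicardial and mesothelial markers fell, and 5 of 10 fibroblast markers fell while 3 rose. All 4 tested adipocyte markers rose, as did 5 of 10 cardiomyocyte markers. Of 10 endothelial markers 3 rose and 1 fell. Of 9 pericyte and smooth muscle markers 2 rose and 2 fell. The 2 tested neutrophil markers fell (median -5.14), as did 1 of 2 tested erythroid markers. The 1 tested T and B cell marker rose. The part of these cell types in the falls of the members was not tested.

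Other genes of the cell cycle, in 6 lists of 127 genes of which 117 were tested, also fell with age, though by less. In WT 96 fell (background 27.8%), 1 rose and 20 did not pass, with a median of -2.48. With DN-MCU 96 fell (background 29.1%), 2 rose and 19 did not pass, with a median of -2.47. The median WT difference was -1.42 for licensing and initiation (11 of 16 fell), -1.64 for replisome and nucleotide supply (20 of 23) and -1.95 for G1/S regulators (14 of 18). It was -2.71 for condensin and cohesin (10 of 14), -3.01 for the kinetochore (18 of 20) and -3.48 for mitotic regulators and transcription factors (23 of 26). As among the members, the replication lists had smaller falls than the mitosis lists. Examples are Gins2, a helicase subunit (-4.89), Cenpn and Cenpi of the inner kinetochore (-4.77 and -4.85), and Cdc25c, the phosphatase that activates CDK1 (-3.23). Rbl2, the pocket protein p130 of quiescent cells, rose in WT by 0.69. With DN-MCU the genes that rose were Cdkn1a, the CDK inhibitor p21 (1.37), and Zwint, a kinetochore protein (0.8).

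In adults, the members did not pass the test between genotypes. None of 39 had a limma adjusted p under 0.05 in either direction (0 higher and 0 lower), where 3.41% of genes tested passed as higher and 1.69% as lower. At an unadjusted p under 0.05, 6 were higher (background 11.0%) and 1 was lower (background 8.48%). By sign alone 35 of 39 were higher with DN-MCU (background 50.3%), with a median of 0.52 against 0 over all genes tested. In 6 members every DN-MCU array was above every WT array (background 10.3%), and in 0 every one was below (background 8.14%). Those 6 were Mcm7, Ccnb2, Cdca8, Kif11, Kif23 and Tpx2. The lowest DN-MCU adult arrays of Kif23, Cdca8 and Ccnb2 (2.95, 2.85 and 2.92) lay below the filter level. Their highest WT adult arrays (2.94, 2.79 and 2.7) did too, so the lack of overlap there rests on near-background signal. For Mcm7, Kif11 and Tpx2 the lowest DN-MCU adult arrays (8.55, 4.11 and 3.4) lay above that level.

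The 3 DN-MCU adults disagreed. DN-MCU adult 1 was the highest of the 6 adult arrays for 32 of 39 members, where it was highest for 17.1% of genes tested. DN-MCU adult 2 was highest for 0 of 39 (background 8.34%) and DN-MCU adult 3 for 3 of 39 (background 37.9%). Relative to the mean of the WT adults, the median member stood at 1.34 in DN-MCU adult 1, -0.03 in DN-MCU adult 2 and 0.05 in DN-MCU adult 3. In DN-MCU adult 1, 23 of 39 members exceeded the WT mean by more than 1 log2 unit, against 5.90% of genes tested. In DN-MCU adult 2 no member did (0 of 39), and in DN-MCU adult 3 there were 3. Without DN-MCU adult 1 the median difference between genotypes was -0.02, with 19 members above and 20 below.

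**Figure D2:**
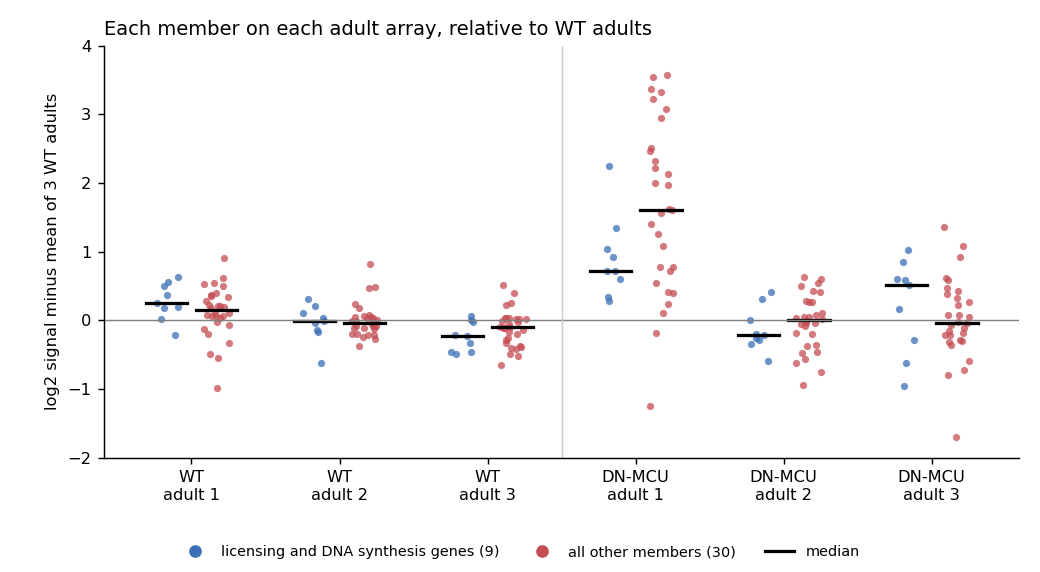
Log2 signal of each of the 39 tested members minus the mean of the 3 WT adults (vertical axis) on each adult array (horizontal axis); blue points are the 9 licensing and DNA synthesis genes, red points the other 30, and bars are medians. In DN-MCU adult 1 the bars stand at 0.72 and 1.61, and the red bars of the other 5 arrays lie between -0.1 and 0.14.

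Mki67 is an example of the disagreement. It read 7.7 in DN-MCU adult 1, 4.41 in DN-MCU adult 2 and 2.64 in DN-MCU adult 3, where the WT adults read 3.35, 4.8 and 4.85. One DN-MCU array was thus above all WT arrays and another below them, and the difference of 0.58 ± 0.97 did not pass (limma adjusted p = 0.825). Top2a read 7.25, 3.72 and 3.09 in DN-MCU adults 1 to 3 and between 3.59 and 3.74 in WT. Its DN-MCU adult 1 stood 3.5 above the next adult array, the largest such gap of the members, and the difference of 1 ± 0.81 did not pass (limma adjusted p = 0.582). Without DN-MCU adult 1 the sign turned for both, to -0.81 for Mki67 and -0.28 for Top2a. Cdk1 was at 5.53, 3.82 and 2.92 with DN-MCU and at 2.66, 4.03 and 2.95 in WT (0.87 ± 0.55, limma adjusted p = 0.466). Here too DN-MCU adult 1 was alone above the WT arrays.

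Ccnb2 had the largest difference, 1.64 ± 0.62 (limma adjusted p = 0.193), with 6.18, 2.92 and 3.72 in DN-MCU adults against 2.7, 2.62 and 2.59 in WT. All its DN-MCU arrays were higher, but DN-MCU adult 2 exceeded the highest WT array by little. Tpx2, which nucleates spindle microtubules, read 4.33, 3.47 and 3.4 with DN-MCU and 3.14, 3 and 2.65 in WT (0.8 ± 0.24, limma adjusted p = 0.0985). Kif11, the motor that pushes spindle poles apart, read 5.27, 4.11 and 4.29 with DN-MCU and 4.07, 3.5 and 3.53 in WT (0.86 ± 0.28, limma adjusted p = 0.126). For Tpx2 and Kif11 the groups did not overlap. Both passed as higher with array weights, with the run of sample names as a block, and without DN-MCU adult 3 and WT adult 1 (limma adjusted p between 0.0157 and 0.0421). Tpx2 also passed without DN-MCU adult 3 alone (0.97, limma adjusted p = 0.0377). All of these settings keep DN-MCU adult 1. Without it both differences were 0.5 (limma adjusted p = 0.177 for Tpx2 and 0.225 for Kif11). Another Tpx2 probe set that passed the filter had the opposite sign, -0.13 (limma adjusted p = 0.849), with 3.03 in DN-MCU adult 1 against a WT mean of 3.2.

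Among the 9 replication members DN-MCU adult 1 was the highest adult array for 7, and among the other 30 members for 25. Mcm7 read 9.48, 8.55 and 9.16 in DN-MCU adults and 8.32, 8.17 and 7.92 in WT, with no overlap (0.93 ± 0.28, limma adjusted p = 0.102). Mcm5 read 7.92, 6.4 and 7.59 with DN-MCU and 7.63, 6.85 and 6.5 in WT, with overlap (0.31 ± 0.42, limma adjusted p = 0.769). For both genes DN-MCU adult 2 was the lowest of the DN-MCU arrays. The 6 MCM genes had a median of 0.66 above the WT mean in DN-MCU adult 1, -0.22 in DN-MCU adult 2 and 0.59 in DN-MCU adult 3. Mcm2 and Mcm3 were highest in DN-MCU adult 3 and Mcm4 was lowest there. Rrm2 was at 8.15 in DN-MCU adult 1 and at 5.69 and 5.62 in the other DN-MCU adults, against 6.41, 5.86 and 5.44 in WT (0.59 ± 0.57, limma adjusted p = 0.657). Pcna was at 11.22, 10.82 and 9.55 with DN-MCU, the last being the lowest adult value (0.02 ± 0.37, limma adjusted p = 0.99).

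Cenpa ran the other way. It read 8.68, 8.98 and 9.62 in DN-MCU adults and 9.6, 10 and 10.18 in WT adults, so DN-MCU adult 3 overlapped with WT adult 1. The difference of -0.83 ± 0.24 had a limma adjusted p of 0.088. It passed as lower with array weights (-1.17, limma adjusted p = 0.00456), with the run of sample names as a block (limma adjusted p = 0.0362), and without DN-MCU adult 3 (-1.09, limma adjusted p = 0.00889). Aurkb was also lower with DN-MCU by sign (-0.3 ± 0.2, limma adjusted p = 0.49). Without DN-MCU adult 2 the members that passed as higher were Ccnb2 (2.31, limma adjusted p = 0.0345), Cdc20 (1.26, limma adjusted p = 0.0455), Mcm7 (1.18, limma adjusted p = 0.0326) and Ube2c (2.22, limma adjusted p = 0.017). Without DN-MCU adult 1 in its place, the differences were 0.68 for Ccnb2, 0.15 for Cdc20, 0.72 for Mcm7 and 0.7 for Ube2c, and none of these 4 passed (limma adjusted p = 0.178, 0.877, 0.231 and 0.341). Cenpa was then at -0.63 (limma adjusted p = 0.205).

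The sample names run in different numbers for replicate 1 and for replicates 2 and 3 of the adults. Within the run of replicate 1, DN-MCU adult 1 minus WT adult 1 had a median of 1.16 over the members, with 34 of 39 above 0. Within the run of replicates 2 and 3 the median was 0.1, with 23 of 39 above 0. The labels do not say what a run stands for.

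DN-MCU adult 1 also held T cell signals. Of 8 T and B cell markers, 6 were measured and 1 passed the filter, and their mean was 4.15 in DN-MCU adult 1 against 2.75 to 3.07 in the other adults. Cd3g, Cd3e and Cd2, of T cells, read 7.73, 4.12 and 4.4 there. The B cell markers did not follow them. Cd79a was below the filter level on every array (2.1 to 2.19). Ms4a1, the marker that passed the filter, was lowest of the adults in DN-MCU adult 1 (3.4 against 3.8 to 4.75), and Cd79b was at 3.16 there against 2.95 to 4.31. A list of 15 T cell and T cell precursor genes, added after the values were seen, had a mean of 5.91 in DN-MCU adult 1 and of 2.7 to 3.21 on the other 11 arrays, and 13 of the 15 were highest there. Rag1, of the recombinase that builds T and B cell receptors, read 9.86 in DN-MCU adult 1, 4.93 in WT adult 1, 3.68 in DN-MCU adult 2 and 2.63 to 2.77 in the other adults.

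Cd8b1 read 8.61, Cd3d 7.67 and Dntt, the polymerase that adds bases during receptor assembly, 7.58 in DN-MCU adult 1. On the other 11 arrays these 3 genes lay between 1.93 and 3.02. Cd4 (2.85) and Rag2 (2.94) were below the filter level in DN-MCU adult 1. Blood cell markers also differed in this array. Of 5 measured neutrophil markers 2 passed the filter, S100a8 and S100a9. They read 5.51 and 4.94 in DN-MCU adult 1, against 3.73 to 4.38 and 2.8 to 3.03 in the other adults. The other 3 (Csf3r, Cxcr2 and Mmp8) lay below the filter level on every array. The 5 measured erythroid markers had a mean of 4.02 there, the lowest of the adults (4.42 to 5.17). The 2 that passed the filter, Alas2 and Slc4a1, were both lowest there (7.34 and 4.95). Hba-a1 and Rhag lay below the filter level on every array. The part of these cells in the higher signals of the members was not tested. Cardiomyocyte markers had a mean of 15.11 in DN-MCU adult 1 and of 15.11 to 15.3 in the other adults. In DN-MCU adult 1 all 39 members still lay below every neonatal array, by a median of 3.47 and at the least by 0.16, for Pcna.

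**Figure D3:**
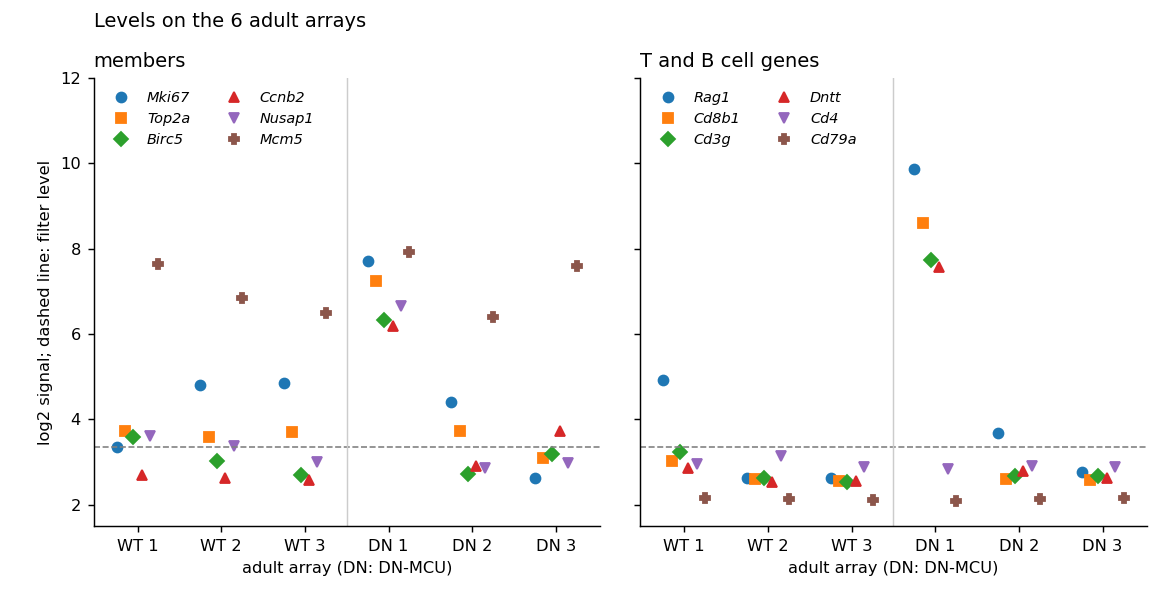
Log2 signal (vertical axis) of 6 members (left) and 6 T and B cell genes (right) on each of the 6 adult arrays (horizontal axis, 3 WT and 3 DN-MCU); each point is 1 gene on 1 array, and the dashed line is the filter level of 3.35. In DN-MCU adult 1 Mki67 is at 7.7 and Rag1 at 9.86, while Cd4 and Cd79a lie below the line on all 6 arrays.

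Among the 117 other cell cycle genes, 2 rose (background 3.41%) and 2 fell (background 1.69%) with DN-MCU in adults. The share that rose was below its background and the share that fell was near it. The other 113 did not pass, and the median of the 117 was 0.08. DN-MCU adult 1 was the highest adult array for 58 of the 117 (background 17.1%). Rfc3, a subunit of the clamp loader, read 6.41, 5.68 and 5.93 with DN-MCU and 4.88, 4.48 and 4.55 in WT, and rose by 1.37 ± 0.22 (limma adjusted p = 0.00598). Cdkn1a read 10.6, 9.62 and 11.18 with DN-MCU and 8.51, 7.39 and 7.28 in WT, and rose by 2.74 ± 0.43 (limma adjusted p = 0.00481). For both genes every DN-MCU array was above every WT array. Spc24, of the outer kinetochore, read 3.91, 4.17 and 4.4 with DN-MCU and 5.37, 4.77 and 5.34 in WT (-1 ± 0.18, limma adjusted p = 0.0112). Ccne1, the cyclin of S phase entry, read 4.5, 4.64 and 4.83 with DN-MCU and 5.8, 5.78 and 5.94 in WT (-1.19 ± 0.25, limma adjusted p = 0.0224). These 4 calls were lost when the adult arrays were fitted alone (limma adjusted p = 0.104, 0.114, 0.206 and 0.0641 for Rfc3, Cdkn1a, Spc24 and Ccne1). Ccne1 also lost its call without DN-MCU adult 1 (limma adjusted p = 0.0707), WT adult 2 (0.0698) or WT adult 3 (0.0878), and Spc24 without WT adult 3 (0.055). Spc24 lost it with the replicate block as well (limma adjusted p = 0.0599). Without DN-MCU adults 1 and 3 together, an alternative chosen after seeing the data, all 4 calls were lost (limma adjusted p = 0.0736, 0.0855, 0.0531 and 0.132 in the same order).

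In neonates the members were bright and differed little between genotypes. Over the 39 the median group mean was 9.57 in WT and 9.55 with DN-MCU. By limma 0 of 39 passed as higher (background 0.0169%) and 0 as lower (background 0.00847%). At an unadjusted p under 0.05, 1 was higher (Plk1, background 1.32%) and 0 were lower (background 1.09%). By sign 30 of 39 were higher with DN-MCU (background 59.0%), with a median of 0.15 against 0.03 over all genes tested. The groups did not overlap in 1 member that was higher, Nusap1 (background 9.13%), and in 0 that were lower (background 4.77%).

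Plk1, the kinase that matures centrosomes, had the largest difference. It read 8.09, 7.42 and 7.72 with DN-MCU and 7.14, 7.49 and 7.29 in WT, so DN-MCU neonate 2 overlapped with WT (0.44 ± 0.2, limma adjusted p = 1). Ttk, the checkpoint kinase MPS1, read 8.34, 7.8 and 7.98 with DN-MCU and 7.58, 7.68 and 7.89 in WT (0.32 ± 0.18, limma adjusted p = 1). Cenpe, a kinetochore motor, read 8.64, 7.82 and 8.52 with DN-MCU and 8.09, 8.03 and 7.92 in WT (0.31 ± 0.25, limma adjusted p = 1). In each of these genes DN-MCU neonate 2 was the lowest of the DN-MCU arrays.

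Aurkb read 7.46, 7.33 and 7.21 in DN-MCU neonates and 6.93, 7.04 and 7.25 in WT neonates (0.26 ± 0.2, limma adjusted p = 1). Cdk1 read 10.03, 9.72 and 9.83 with DN-MCU and 9.88, 9.61 and 9.75 in WT (0.12 ± 0.55, limma adjusted p = 1). Top2a read 10, 9.66 and 9.65 with DN-MCU and 9.54, 9.76 and 9.64 in WT (0.12 ± 0.81, limma adjusted p = 1). The groups overlapped in all 3 genes, and DN-MCU neonate 1 was the highest array of each. Rrm2 read 11.82, 11.39 and 11.12 with DN-MCU and 11.2, 11.52 and 11.34 in WT, again with overlap (0.09 ± 0.57, limma adjusted p = 1). Mki67 was almost level, at 10.08, 9.66 and 9.9 with DN-MCU and 9.73, 9.84 and 10.05 in WT (0.01 ± 0.97, limma adjusted p = 1). The fit gives each gene 1 spread over the 4 groups, and the SD of Mki67 was 0.16 and 0.21 in WT and DN-MCU neonates but 0.85 and 2.57 in the adults.

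The DN-MCU neonates were also more unlike each other than the WT neonates. The median SD over the members was 0.292 with DN-MCU and 0.11 in WT, where it was 0.138 and 0.126 over all genes tested. DN-MCU neonate 1 was the highest neonatal array for 25 of 39 members (background 14.9%). DN-MCU neonate 2 was the lowest for 13 of 39 (background 16.7%), all of them outside the replication group. DN-MCU neonate 3 was the highest for 9 of 39 (background 17.8%) and the lowest for 9 of 39 (background 17.2%).

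In DN-MCU neonate 3 the replication members differed from most other members in their side of the WT mean. The 9 it was lowest for were the 9 tested replication members: Mcm2 to Mcm7, Pcna, Rrm2 and Tk1, the thymidine kinase of S phase. Their median was -0.65 relative to the WT mean, and that of the 6 MCM genes was -0.75. Of the other 30 members, 29 were above the WT mean there, with a median of 0.25. Mcm5 read 10.98, 10.93 and 9.99 in DN-MCU neonates 1 to 3 against 10.79, 10.79 and 10.65 in WT, and Pcna 12.15, 12.1 and 11.38 against 12.01, 11.93 and 11.98. Kif2c, a motor that takes apart microtubules, read 9.02, 8.67 and 9.49 against 8.86, 8.76 and 8.8. The group differences were -0.11 ± 0.42 for Mcm5, -0.1 ± 0.37 for Pcna and 0.26 ± 0.21 for Kif2c (limma adjusted p = 1 for each). For Mcm5 and Pcna DN-MCU neonate 3 was the lowest of the 6 arrays, and for Kif2c it was the highest.

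**Figure D4:**
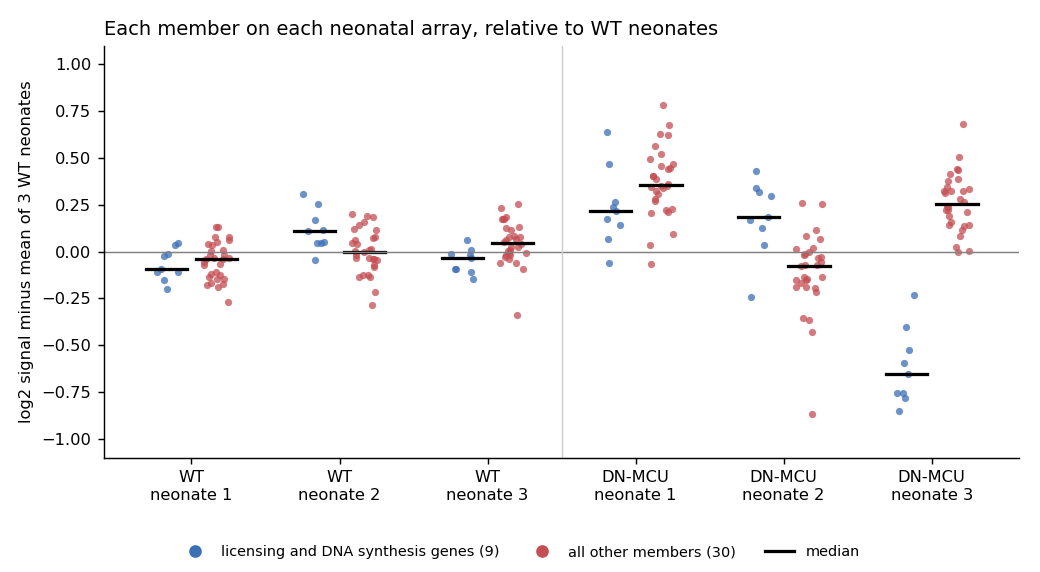
Log2 signal of each of the 39 tested members minus the mean of the 3 WT neonates (vertical axis) on each neonatal array (horizontal axis); blue points are the 9 licensing and DNA synthesis genes, red points the other 30, and bars are medians. In DN-MCU neonate 3 the blue bar stands at -0.65 and the red bar at 0.25, and the axis spans a much smaller range than that of the adult plot.

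The lists of other cell cycle genes were set beside this pattern. Of 23 replisome and nucleotide supply genes, 20 were lowest in DN-MCU neonate 3, with a median of -0.36 relative to the WT mean. Of 16 licensing and initiation genes, 9 were lowest there (median -0.24). Of 18 G1/S regulators, 8 were lowest there (median -0.22). Of 26 mitotic regulators, 1 was lowest there (median 0.21), and of 20 kinetochore genes, 3 were (median 0.18). Condensin and cohesin genes did not share the higher signal of the mitosis members: 5 of 14 were lowest there and 0 highest, with a median of -0.06. Markers of several cell types were also low in this array, which was the lowest neonate for 17.2% of all genes tested. In DN-MCU neonate 3, 7 of 10 fibroblast markers (median -0.22), 6 of 10 macrophage markers (median -0.33) and 5 of 7 epicardial and mesothelial markers (median -1.04) were the lowest of the 6 neonates. Of 10 endothelial markers, 4 were lowest there (median -0.16). The 2 tested erythroid markers had a median of -0.66, and 0 were lowest there. Going the other way, Dpep1 of the fibroblast list (8.41), Tbx18 of the epicardial list (10.21) and Fabp4 of the endothelial list (14.71) were highest there. The cardiomyocyte median was -0.05, the pericyte and smooth muscle median 0.06 and the neutrophil median 0.24. In DN-MCU neonates 1 and 2 the epicardial medians (-0.73 and -0.66) and macrophage medians (-0.19 and -0.13) were below the WT mean too. The fibroblast medians there were not (0.07 and 0.01). The part of these cell types in the pattern was not tested. The pattern rests on 1 array and was noticed in these values, so it is given with no test. None of the 117 other genes passed between neonatal genotypes (0 by limma).

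The difference of the genotype effects between ages was not significant for any tested member. Of 39, 0 passed as more positive in adults (background 0.712%) and 0 as more negative (background 0.237%). At an unadjusted p under 0.05, 1 was more positive (Mcm7, background 5.31%) and 1 more negative (Cenpa, background 4.51%). The median was 0.49, and -0.09 without DN-MCU adult 1. Cenpa passed with array weights (-1.13, limma adjusted p = 0.0192) and without DN-MCU adult 3 and WT adult 1 (-1.19, limma adjusted p = 0.0242). The spread of the members within groups shows where the precision lies: their median SD was 0.796 in DN-MCU adults and 0.306 in WT adults, against 0.398 and 0.206 over all genes tested.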

How the data were processed

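Total RNA of each heart was hybridized as biotinylated cRNA to Affymetrix arrays, per the labels' protocols. The authors deposited a table of log2 values that had been normalized; their range shows the scale. Their normalization method was not given in the sources used here. No raw scan was used. Partek appears, with no stated role, in the submitters' processing notes.

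Of 45101 probe sets 64 controls were removed. Platform annotation gave 34945 probe sets 1 gene, 932 several and 9160 none. A probe set was kept if at least 3 of its 12 values exceeded log2 3.35, the median of all values, which left 24176. Weaker signals lie near the background of the arrays. One limma fit (version 3.58.1, R 4.3.3) held the 4 group means, with Benjamini-Hochberg adjustment over all 24176 probe sets. Passing means an adjusted p under 0.05. Backgrounds were counted over 11804 genes, each read by its brightest probe set. SE comes from the fit, and 3 arrays per group limit the precision. The fit was also run on simulated data in which each probe set had the same spread on all 12 arrays. The measured spread differed between groups, with a median SD of 0.4 in DN-MCU adults and 0.132 in WT neonates. That run therefore cannot tell how the fit behaves with the unequal spread of these arrays.

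The members and gene lists were chosen with earlier results of these data known. Named members are those with the 5 largest falls for age, the 5 smallest p values for genotype, and Mki67, Top2a, Cdk1, Aurkb, Mcm5, Pcna and Rrm2 in every comparison; for the difference of effects only some of them are printed. Of the other lists, the 2 smallest p values per list and the genes that passed between genotypes could be named. Cenpa in the age comparisons, Anln's arrays, Cdc20 and Ube2c in adults, Mcm2 to Mcm4 by array, Nusap1, Rbl2, Zwint and the cell type markers were named after their values were seen, as were all T cell genes.

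The rule for pairing by replicate number was that every same-number correlation of deviations exceeds 0.1. Neonates met it (0.133, 0.223 and 0.283) and adults did not (-0.381, 0.41 and -0.428). The neonatal correlations are low and the labels leave the meaning of a number unstated, so a pairing is not established. Alternatives were other normalizations, filters, array weights, blocks and arrays left out. Promoter letters were searched on both strands of RefSeq windows, the first listed per gene.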

Additional observations from a re-analysis of the deposited data

How the results depend on the processing

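The 39 falls with age were called in both genotypes under every alternative that tested 39 members, except Pcna with DN-MCU when that genotype was fitted alone; the stricter filter tested 35 and called 35. No called value changed sign. Over all probe sets, the stricter filter (log2 7.25) gave 6650 calls for age in WT and 6808 with DN-MCU, and leaving out 1 array gave 8826 to 10181 and 8828 to 12464. The member medians then ran from -5.33 to -5.14 and from -5.38 to -4.63, and without DN-MCU adults 1 and 3 the latter was -5.45.

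For adult genotype, 0 members passed with a replicate block or a neonatal replicate block, and the count over all probe sets was 568 and 636. With array weights 1 member was called lower and 2 higher, and likewise with the sample-name run as a block and without DN-MCU adult 3 and WT adult 1. The counts over all probe sets were 112 when adults alone were fitted, 2036 with array weights and 3140 without DN-MCU adult 3 and WT adult 1. Leaving out 1 array gave 0 to 1 members lower, 0 to 4 higher, 619 to 2214 probe sets and a median of -0.02 (without DN-MCU adult 1) to 0.79, so the sign of the member median rests on that array. Without DN-MCU adults 1 and 3 it was -0.03.

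For neonatal genotype 0 members passed in any setting. Over all probe sets there were 0 calls with either replicate block, 1 with array medians subtracted or neonates alone, 2 with quantile normalization or the stricter filter, 95 with array weights, and 0 to 12 with 1 array left out (member median 0.05 to 0.26). For the difference of effects, array weights gave 1216 probe sets with 1 member lower, the replicate block 39, the neonatal replicate block 71, and leaving out DN-MCU adult 3 and WT adult 1 1112 with 1 member lower. Without DN-MCU adults 1 and 3 it gave 368 and a median of -0.17, and with 1 array left out 70 to 636 and medians of -0.09 (without DN-MCU adult 1) to 0.82. The neonatal numbers met the rule for pairing, and no member's call changed with the neonatal replicate block. The block and the removal of 2 DN-MCU adults were chosen after seeing the data. Causes of these moves were not tested.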

Other observations

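Genes outside the list were ranked by how closely their 6 adult deviations from the WT mean matched the mean of the members, which was 1.49 in DN-MCU adult 1, -0.05 in DN-MCU adult 2 and 0.07 in DN-MCU adult 3. Among 7291 genes compared, the closest was Tube1, epsilon tubulin, at 1.65, -0.01 and 0.19 in DN-MCU adults 1 to 3 (root mean square difference 0.114). It was followed by Mxd1, Mob3a, Knl1, Itga4, B3gnt5, Marcksl1, Spdl1, Plac8 and Stmn1, with differences of up to 0.154. Knl1 and Spdl1 are kinetochore genes and Stmn1 destabilizes microtubules.

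These neighbours did not share one course with age. Knl1 (-3.18), Spdl1 (-4.69), Stmn1 (-2.76), Marcksl1 (-4.78), B3gnt5 (-4.74) and Tube1 (-1.35) fell in WT between birth and adulthood. Mxd1, Mob3a, Plac8 and Itga4, an integrin of leukocytes, did not pass there, with differences of 0.05, -0.34, 0.13 and 0.01. The likeness is over 6 arrays and rests mostly on DN-MCU adult 1, so it is given as a description with no test.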
